A study of Homo sapiens with 12 samples.

Results

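The 9 classical androgen-induced genes of the prostate, KLK2, KLK3, KLK4, TMPRSS2, FKBP5, SLC45A3, PMEPA1, STEAP2 and CAMKK2, were followed here in tumours of the human prostate cancer line 22Rv1. They are picked out by gene symbol and make up 9 of the 19027 gene symbols in the tables, with 1 transcript each. 22Rv1 comes from a xenograft that regrew after castration of its host. The cells were injected under the skin of the hind flank of male NSG mice, an immunodeficient strain, aged 6 to 8 weeks, and treatment began when tumours measured 70 to 100 mm3. Mice received zotatifin at 0.3 mg/kg in 5% dextrose, or 5% dextrose alone as the vehicle, by intraperitoneal injection, and tumours were taken 6 h later. No castration and no androgen treatment is named in the labels for any group. Each treatment had 3 tumours, from which ribosome footprints and RNA were both sequenced, so that there were 12 libraries in 4 groups of 3. For 6 of the 12 libraries the labelled treatment disagrees with the library's title; groups follow the titles, which call the replicates biological. The tables head the treated columns with a code instead of the drug's name, which was read as the development code of zotatifin, and the directions below rest on that reading.

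Androgens activate genes of the prostate through androgen response elements, which are inverted repeats in promoters and distant enhancers. The best known of the induced products is KLK3, the prostate-specific antigen, a serine protease measured in blood as a marker of prostate cancer. Zotatifin clamps the helicase eIF4A onto purine-rich stretches of mRNA leaders and so hinders the scanning ribosome, which makes the ratio of footprints to RNA the readout closest to the drug.

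Depth in footprints was 1592316 to 2013968 counts per library in the vehicle group and 838135 to 1540867 in the zotatifin group, and in RNA 5761921 to 7121802 and 6594884 to 8153674. Levels below are CPM, counts brought to a common library size with TMM factors within each assay, and translational efficiency (TE) is the log2 ratio of footprint CPM to RNA CPM in the same tumour. They are shares of a library and do not show a global rise or fall, and in a bulk tumour fewer cells of a type and less RNA per cell cannot be told apart. Every one of 10 markers of prostate luminal epithelium was detected in every library, and their summed RNA level ran from 4865 to 5869 CPM with vehicle and from 5749 to 6204 CPM with zotatifin. Of these 10, 3 rose in footprints and 0 in RNA, beside 3.22% and 0.808% of all genes tested. Markers of neuroendocrine cells summed to 168 to 204 CPM of footprints with vehicle and 240 to 369 CPM with zotatifin. Of these, 0 of 3 tested were called, beside 7.14% of all genes in footprints. Markers of fibroblasts and myeloid cells were mostly lower with zotatifin. The species of these reads was not tested. The 10 fibroblast markers summed to 471 to 811 CPM of footprints with vehicle and 143 to 269 CPM with zotatifin, at most 0.0811% of a library. In RNA they summed to 216 to 364 CPM and 69.7 to 131 CPM. Of those tested, 5 of 7 fell in footprints and 4 of 6 in RNA. Mean RNA of DCN and LUM was higher with zotatifin, at 1.18 and 2.86 CPM against 0.860 and 1.98 CPM. The 8 myeloid markers summed to 76.0 to 349 CPM and 36.2 to 65.0 CPM of footprints, where 2 of 4 tested fell. In RNA they summed to 16.2 to 54.8 CPM and 10.8 to 20.6 CPM, which overlapped, and 1 of 3 tested fell. Over all genes 3.92% fell in footprints and 0.907% in RNA. CD14 was at 0 in every footprint library and TYROBP in every RNA library. The 6 endothelial markers summed to 5.60 to 15.2 CPM of RNA with vehicle and 3.57 to 6.70 CPM with zotatifin, with a median log2 change of −1.16 over the 2 tested, neither of them called. In footprints none of the 6 passed the filter, and EMCN was at 0 in every library. The part of these cells in the results below was not tested.

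KLK3, KLK2 and KLK4 lie in the kallikrein cluster of chromosome 19 (GRCh38.p14), at 50854915 to 50860764, 50873439 to 50880567 and 50906351 to 50911395. The 250 bases upstream of KLK3 and KLK2 are shown because these neighbours are both androgen-induced and arose by duplication. The sequences are from RefSeq (GRCh38.p14, plus strand), KLK3 at chr19:50854665-50854914 and KLK2 at chr19:50873189-50873438, and capitals mark the stretch of 15 bases closest to the androgen response element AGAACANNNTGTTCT.
KLK3: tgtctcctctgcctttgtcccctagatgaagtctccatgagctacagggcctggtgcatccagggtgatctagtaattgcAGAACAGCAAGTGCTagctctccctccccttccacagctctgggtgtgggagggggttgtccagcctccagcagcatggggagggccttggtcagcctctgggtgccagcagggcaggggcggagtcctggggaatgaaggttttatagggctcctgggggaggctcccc
KLK2: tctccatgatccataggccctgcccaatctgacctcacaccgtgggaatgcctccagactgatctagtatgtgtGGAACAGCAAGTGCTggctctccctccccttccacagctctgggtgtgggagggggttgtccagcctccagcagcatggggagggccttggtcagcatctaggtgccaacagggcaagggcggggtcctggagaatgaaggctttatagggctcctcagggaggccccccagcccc
In a global alignment of 259 columns, 205 were identical (79.2%), with 18 gap columns, and the longest identical run was 80 bases. The marked stretch of KLK3, which starts 170 bases before the transcription start, differs from the element at 2 of its 12 fixed bases. That of KLK2, which starts 176 bases before the start, differs at 3, and the KLK2 stretch departs from that of KLK3 only by A1G, counted from its 5′ end. Windows were found for 8 of the 9 genes, 14 in all. The element, which reads the same on both strands, was found with up to 2 mismatches in 2 of these 14 windows, those of KLK3 and of 1 of 4 PMEPA1 starts (TGAAGAATGTGTTCT). Of all 35116 upstream windows of the same length, 1.18% held it with up to 2 mismatches and 9.17% with up to 3. A match is a description of letters and says nothing of binding in these tumours.

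None of the 9 genes passed the test in footprints, in RNA or in TE when the treatments were compared without a tumour term (edgeR quasi-likelihood, adjusted p under 0.05). Over all genes the same test called 7.14% of 9544 genes in footprints, 1.72% of 13118 in RNA and 2.04% of 9454 in TE, so that 0 of 9 lies near those backgrounds. An unadjusted p under 0.05 was found for 1 of the 9 in each comparison, KLK4 in footprints, KLK2 in RNA and KLK4 in TE. The shares above are for adjusted p and do not serve as a background for these. DESeq2 also called 0 of 9 in each, though it gave KLK3 no adjusted p in footprints or TE. Over all genes it called 380 in footprints, 313 in RNA and 213 in TE. The median log2 change of the 9 was 0.016 in footprints, −0.0024 in RNA and 0.042 in TE, beside 0.0030, −0.0023 and −0.014 over all genes tested. KLK4 rose in TE once the tumour was added to the model as a block, as described below.

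**Figure D1:**
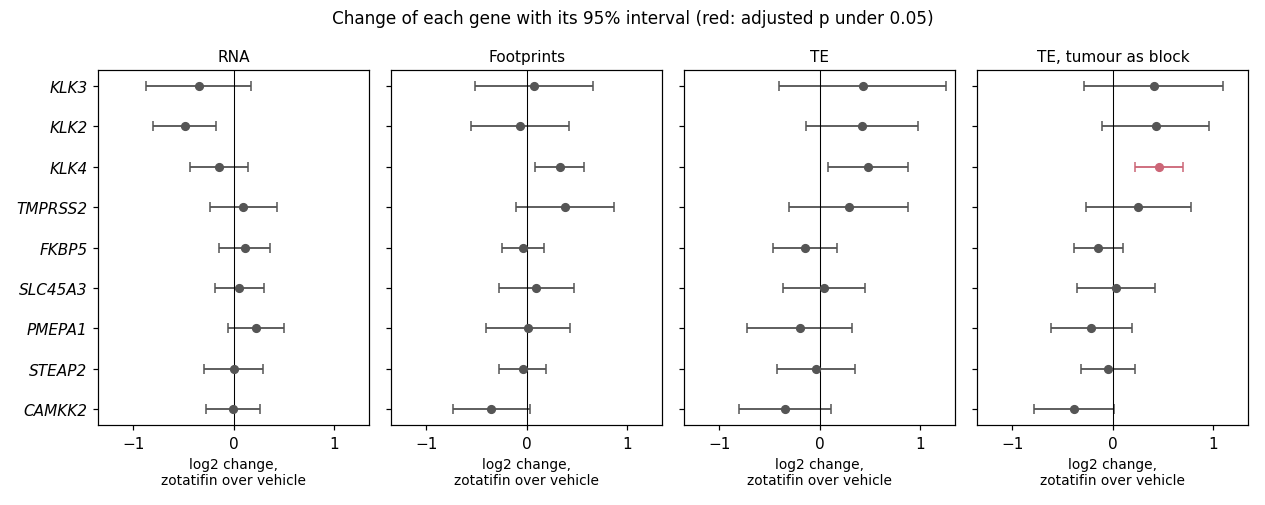
Log2 change, zotatifin over vehicle, of the 9 genes (rows) in RNA, footprints, TE and TE with the tumour as a block (panels), with points for edgeR estimates and bars for 95% intervals (3 tumours per treatment). Red marks an adjusted p under 0.05, which was reached by KLK4 alone, in the last panel, at 0.46.

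KLK4, a secreted serine protease of the prostate that also matures tooth enamel, gave the clearest shift. Its footprints were 325, 342 and 287 CPM in the vehicle tumours and 356, 495 and 357 CPM in the zotatifin tumours. Every zotatifin library was higher than every vehicle library, with tumour 2 of the zotatifin group standing well above the others. Groups did not overlap in footprints for 26.4% of all genes tested, with zotatifin higher for 12.9% and lower for 13.5%. KLK4 RNA was 388, 455 and 298 CPM with vehicle and 341, 364 and 324 CPM with zotatifin, and these ranges overlapped. The log2 change was 0.33 ± 0.12 in footprints (SE, n = 3 per treatment; edgeR adjusted p = 0.0926; 0.17 without zotatifin library 2) and −0.15 ± 0.14 in RNA (edgeR adjusted p = 0.602).

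The KLK4 ratio of footprint to RNA CPM was 0.839, 0.752 and 0.962 in the vehicle tumours and 1.04, 1.36 and 1.103 in the zotatifin tumours, without overlap, as for 10.8% of genes in that direction, 15.5% in the other and 26.3% in either. Its log2 TE change was 0.48 ± 0.20 (95% interval 0.078 to 0.88, edgeR adjusted p = 0.216) without a tumour term. Footprint and RNA libraries were both prepared from tumour lysates, and libraries with 1 number were taken as 1 tumour; with the tumour as a block the change was 0.46 ± 0.12 (0.22 to 0.70), a 1.37-fold rise with an edgeR adjusted p = 0.00789. That fit called 9.14% of all genes, 3.14% as rises, and 1 of the 9 androgen targets, a share near the background. Without vehicle tumour 2 the blocked change was 0.36 and not called (edgeR adjusted p = 0.0893), and without zotatifin tumour 2 it was 0.35 (edgeR adjusted p = 0.0860). In the authors' deposited table of footprints relative to RNA, KLK4 has an estimate of 0.347 with an FDR of 8.17e-12; the scale is not stated and reads from the values as a natural log.

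**Figure D2:**
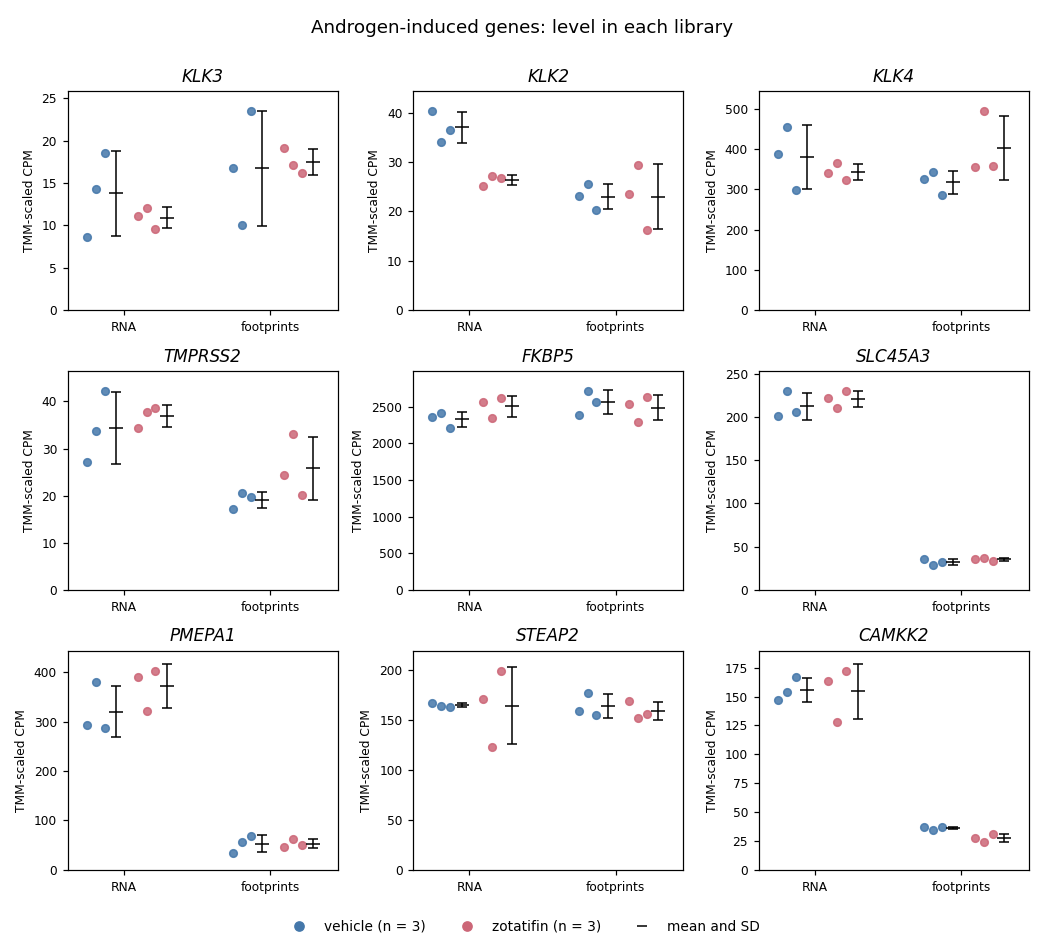
TMM-scaled CPM of each gene in RNA and footprints, with 1 point per library (vehicle blue, zotatifin red), the mean and SD over 3 libraries in black, and each axis starting at 0. KLK4 footprints lie at 287 to 342 CPM with vehicle and 356 to 495 CPM with zotatifin, and KLK2 RNA at 34.0 to 40.4 and 25.2 to 27.1 CPM.

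KLK2, the glandular kallikrein that can cleave the proform of KLK3, had RNA levels of 40.4, 34.0 and 36.6 CPM with vehicle and 25.2, 27.1 and 26.9 CPM with zotatifin. All 3 zotatifin libraries were lower than all 3 vehicle libraries, as for 10.9% of all genes tested in RNA (23.1% in either direction). The log2 change of −0.49 ± 0.15 (95% interval −0.80 to −0.18) did not pass the test (edgeR adjusted p = 0.0940). Its footprints, at 23.1, 25.5 and 20.3 CPM with vehicle and 23.4, 29.4 and 16.2 CPM with zotatifin, overlapped fully, with a log2 change of −0.07 ± 0.24. They rested on 24 to 47 counts per library. The TE change was 0.42 ± 0.27 (95% interval −0.14 to 0.98, edgeR adjusted p = 0.489), with 0.26 without zotatifin tumour 2 and 0.68 without zotatifin tumour 3.

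KLK3 was a low message in these tumours, with 49 to 133 RNA counts and 14 to 37 footprint counts per library. Its RNA was 8.57, 14.2 and 18.5 CPM with vehicle and 11.1, 11.99 and 9.52 CPM with zotatifin. The vehicle tumours spanned the whole range of the zotatifin tumours. The log2 change in RNA was −0.35 ± 0.25 (edgeR adjusted p = 0.483), with −0.60 without vehicle library 1 and −0.073 without vehicle library 3. Footprints were 16.7, 9.99 and 23.5 CPM with vehicle and 19.1, 17.2 and 16.2 CPM with zotatifin, a change of 0.07 ± 0.29. The interval of the TE change was the widest of the 9, from −0.41 to 1.26, and its estimate of 0.42 was 0.68 without vehicle tumour 1 and 0.14 without vehicle tumour 2.

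Reads of KLK2 and KLK3 may have been counted for the wrong member of this closely related pair, so their sum was taken as well. Summed RNA was 48.96, 48.3 and 55.1 CPM with vehicle and 36.3, 39.1 and 36.4 CPM with zotatifin, without overlap. Among single genes RNA lacked overlap in that direction for 10.9% and in either for 23.1%. The sum is mostly KLK2, with a vehicle mean of 37.0 of 50.8 CPM, so it largely repeats the KLK2 values. Summed footprints were 39.8, 35.5 and 43.8 CPM and 42.5, 46.6 and 32.3 CPM, which overlapped. The sum, chosen after the values were seen, has no test.

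TMPRSS2, a transmembrane serine protease (chromosome 21, 41464305 to 41508158) whose androgen-driven promoter is fused to ERG in many prostate cancers, had 27 to 37 footprint counts per library. Its footprint level was 17.2, 20.5 and 19.7 CPM with vehicle and 24.3, 33.1 and 20.1 CPM with zotatifin. The lowest zotatifin library lay just under the highest vehicle library. The log2 change of 0.38 ± 0.24 (95% interval −0.11 to 0.87, edgeR adjusted p = 0.367) did not pass the test, and it was 0.21 without zotatifin library 2. RNA overlapped, at 27.1, 33.7 and 42.3 CPM and 34.3, 37.8 and 38.5 CPM, with a change of 0.10 ± 0.16.

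FKBP5, a co-chaperone of HSP90 that binds steroid receptors and is induced by androgens and glucocorticoids (chromosome 6, 35573590 to 35728583), carried most of the counts of the group, with 1873 to 4896 footprint counts and 13491 to 21165 RNA counts per library. Its footprints were 2388, 2718 and 2567 CPM with vehicle and 2531, 2297 and 2627 CPM with zotatifin, and its RNA 2359, 2412 and 2211 CPM and 2559, 2343 and 2611 CPM. Both sets overlapped. The footprint change was −0.04 ± 0.10 on the log2 scale (edgeR adjusted p = 0.856), with a 95% interval of 0.841-fold to 1.12-fold, the narrowest of the 9. The FKBP5 ratio was 1.01, 1.13 and 1.16 with vehicle and 0.989, 0.980 and 1.01 with zotatifin, all lower than vehicle by a small margin. Its log2 TE change was −0.15 ± 0.15 without the tumour block (edgeR adjusted p = 0.705) and −0.15 ± 0.12 with it (edgeR adjusted p = 0.519). The authors' deposited table gives FKBP5 an estimate of −0.0848 with an FDR of 1.46e-05, a call that neither edgeR fit made. That table put 2 of the 9 genes, KLK4 and FKBP5, at an FDR under 0.05, beside 18.3% of the 11446 genes it lists. Their deposited RNA table put 0 of the 9 under that threshold, beside 2.47% of its genes.

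The remaining genes act in transport and signalling. SLC45A3, also called prostein, a prostate-restricted transporter of the membrane (chromosome 1, 205657851 to 205680509), had 36.4, 29.4 and 32.4 CPM of footprints with vehicle and 35.6, 36.8 and 33.6 CPM with zotatifin. Its log2 change was 0.10 ± 0.18 in footprints and 0.05 ± 0.12 in RNA. STEAP2, a metalloreductase of membranes (chromosome 7, 90211740 to 90243408), had 160, 178 and 156 CPM of footprints with vehicle and 169, 152 and 157 CPM with zotatifin, a change of −0.04 ± 0.11. STEAP2 RNA was 167, 165 and 164 CPM in the vehicle tumours but 171, 123 and 200 CPM in the zotatifin tumours, so that the zotatifin group had the larger spread and the change was −0.002 ± 0.14. Neither gene differed between treatments beyond the spread of its libraries.

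PMEPA1, an androgen- and TGF-beta-induced membrane protein that restrains TGF-beta signalling (chromosome 20, 57648396 to 57711472), had 294, 379 and 286 CPM of RNA with vehicle and 391, 321 and 403 CPM with zotatifin. These groups overlapped, with a log2 change of 0.22 ± 0.14 (edgeR adjusted p = 0.410), which was 0.36 without vehicle library 2 and 0.14 without vehicle library 3. Its footprints ran from 33.9 to 68.0 CPM with vehicle and from 46.0 to 62.5 CPM with zotatifin, a change of 0.02 ± 0.20.

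CAMKK2, the kinase that links calcium to AMPK (chromosome 12, 121237692 to 121297819), had footprints of 36.9, 35.0 and 36.9 CPM with vehicle and 27.8, 24.5 and 31.0 CPM with zotatifin. All zotatifin libraries were lower, on 20 to 48 counts each. The log2 change was −0.35 ± 0.19 (95% interval −0.74 to 0.027, edgeR adjusted p = 0.265). CAMKK2 RNA overlapped, at 147 to 167 CPM and 128 to 172 CPM, with a change of −0.01 ± 0.13. Its ratio was 0.251, 0.228 and 0.221 with vehicle and 0.169, 0.192 and 0.180 with zotatifin, without overlap, and its TE change of −0.35 ± 0.23 was not called (edgeR adjusted p = 0.483), nor was it with the tumour as a block (−0.38 ± 0.20, edgeR adjusted p = 0.247).

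**Figure D3:**
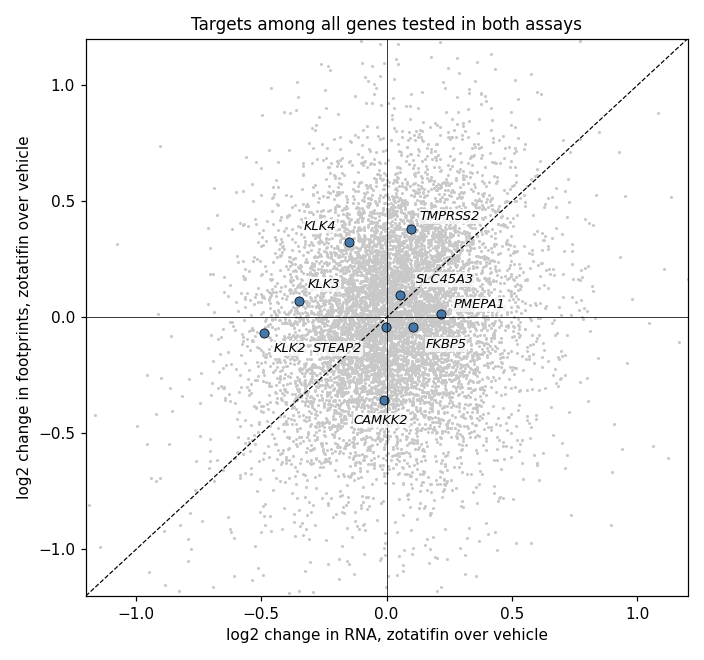
Log2 change in footprints (vertical axis) against log2 change in RNA (horizontal axis), zotatifin over vehicle, for 9454 genes tested in both assays (grey; 103 lie outside the axes) and the 9 androgen targets (blue); the dashed line marks equal change. KLK4 lies at 0.33 in footprints and −0.15 in RNA, KLK2 at −0.07 and −0.49, and CAMKK2 at −0.35 and −0.01.

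In all, groups did not overlap for 2 of the 9 genes in footprints (KLK4 higher, CAMKK2 lower), 1 in RNA (KLK2 lower) and 3 in TE (KLK4 higher, FKBP5 and CAMKK2 lower). The backgrounds were 26.4%, 23.1% and 26.3%, so these shares are not results about the group. The 95% intervals bound what these libraries could show. In footprints they ran from 0.600-fold (CAMKK2) to 1.82-fold (TMPRSS2), and in RNA from 0.545-fold (KLK3) to 1.41-fold (PMEPA1). In TE without the tumour block they were wider, from 0.571-fold (CAMKK2) to 2.39-fold (KLK3). An adjusted p that misses the threshold does not show that a gene stayed level.

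The 9 genes differed far more from each other in TE than between treatments. Over 9448 genes the median log2 TE level with vehicle was −0.19, with the middle 80% between −1.92 and 1.39. The counted part of each transcript is not given in the sources used here, and where the assays count different parts, this level depends on the length of the leader and trailer as well. KLK3 (0.27 ± 0.74, SD, n = 3 tumours), FKBP5 (0.14 ± 0.10), STEAP2 (−0.010 ± 0.10) and KLK4 (−0.24 ± 0.18) lay near the middle, at the percentiles 64.0, 60.2, 55.4 and 48.5 of all genes. The ranges of each neighbouring pair in this order overlapped. KLK2 (−0.69 ± 0.24) and TMPRSS2 (−0.82 ± 0.24) followed at the percentiles 35.2 and 31.6; the lowest KLK4 tumour lay just above the highest KLK2 tumour, and KLK2 and TMPRSS2 overlapped.

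CAMKK2 (−2.10 ± 0.097), PMEPA1 (−2.65 ± 0.53) and SLC45A3 (−2.70 ± 0.25) formed the low end, at the percentiles 7.99, 3.66 and 3.28. A step of 1.28 on the log2 scale separated TMPRSS2 from CAMKK2, with no overlap between tumours, while the last 3 overlapped as neighbours. SLC45A3, for example, had 212 ± 15.8 CPM of RNA and 32.7 ± 3.49 CPM of footprints with vehicle. With zotatifin the same 3 genes were lowest, at −2.47 ± 0.090 (CAMKK2), −2.81 ± 0.39 (PMEPA1) and −2.64 ± 0.13 (SLC45A3), and KLK4 moved from the fourth to the second place.

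**Figure D4:**
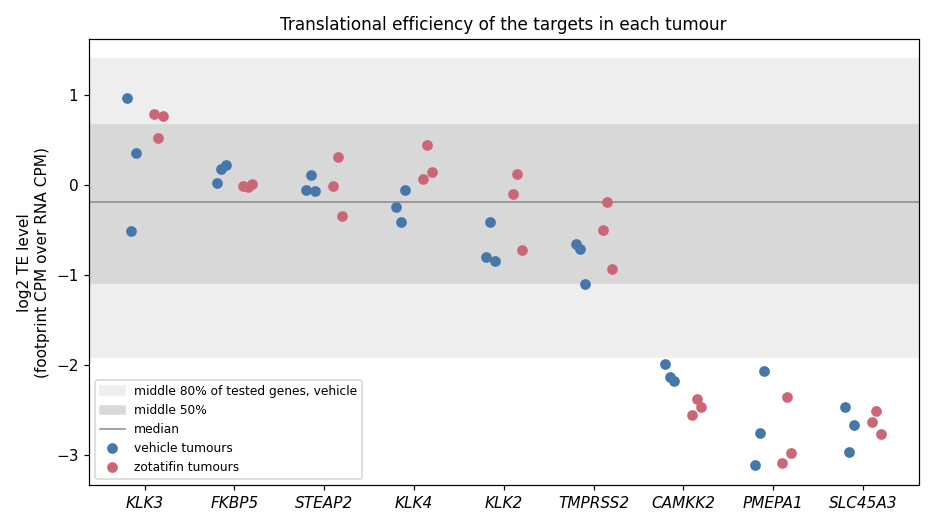
Log2 ratio of footprint to RNA CPM (vertical axis) for each gene, ordered by its mean with vehicle, with 1 point per tumour (vehicle blue, zotatifin red); grey bands mark the middle 80% and 50% of 9448 genes with vehicle, and the line their median of −0.19. CAMKK2, PMEPA1 and SLC45A3 lie below −1.92 in all 6 tumours, and the KLK4 points of the treatments lie apart.

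A wider list of androgen-induced genes was read beside the 9, with 97 symbols in the tables. In footprints 82 were tested, of which 2 rose and 8 fell, 72 were not called, and the median log2 change was −0.13 beside 0.0030 over all genes. Over all genes 3.22% rose and 3.92% fell, and no test of the list as a whole was made. SPCS3, a subunit of the signal peptidase, fell from 278 ± 19.4 to 180 ± 20.7 CPM (−0.63 ± 0.11, edgeR adjusted p = 0.00105), and it was the 1 of the 10 calls that held without any 1 library. DNAJB9, a cochaperone of the endoplasmic reticulum, fell by 1.503 ± 0.36 (edgeR adjusted p = 0.0109), and the growth-signal kinase RPS6KA3 by 0.70 ± 0.18 (edgeR adjusted p = 0.0179). DNAJB9 footprints were low, at 17.2, 11.1 and 20.3 CPM with vehicle and 3.47, 3.68 and 8.41 CPM with zotatifin. DESeq2 gave DNAJB9 no adjusted p and did not call RPS6KA3 (DESeq2 adjusted p = 0.0711). DNAJB9 RNA was 10.8, 19.0 and 17.5 CPM with vehicle and 9.79, 10.4 and 12.6 CPM with zotatifin, which overlapped. SPCS3 RNA was lower too, at 200, 198 and 183 CPM with vehicle and 158, 139 and 174 CPM with zotatifin. RPS6KA3 RNA was 44.9, 46.5 and 44.9 CPM against 38.2, 29.7 and 33.3 CPM. Neither RNA change was called, and both lacked overlap, as for 10.9% of all genes in that direction and 23.1% in either. The DNAJB9 call was lost without vehicle library 1 or zotatifin library 1 (edgeR adjusted p up to 0.0752), and that of RPS6KA3 without vehicle library 1 or 3 or zotatifin library 2 (up to 0.0898). Instead of 10 calls there were 2 when vehicle library 1 was left out, 4 when vehicle library 3 was, and 5 when zotatifin library 1 or zotatifin library 3 was, and DESeq2 gave 3.

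In RNA, 0 of 89 tested genes of the list rose and 2 fell, beside 0.808% and 0.907% of all genes. They were INSIG1, a brake on sterol synthesis (−0.71 ± 0.14, edgeR adjusted p = 0.0165), and the sulfate transporter SLC26A2 (−0.70 ± 0.15, edgeR adjusted p = 0.0193). Neither was called without vehicle library 1 or zotatifin library 3. INSIG1 was also lost without vehicle library 2 and SLC26A2 without vehicle library 3, with edgeR adjusted p up to 0.119 and 0.134. The next genes by adjusted p were GLRA2 (−1.47 ± 0.39) and LIFR (−0.67 ± 0.19), with edgeR adjusted p of 0.0546 and 0.0752.

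In TE, 1 of 82 tested genes of the list fell and 0 rose without the tumour block, beside 1.6% and 0.444% of all genes. It was PLPP1, a lipid phosphatase of the cell surface (−1.18 ± 0.28, edgeR adjusted p = 0.0204), a call lost without vehicle tumour 1 or 3 or zotatifin tumour 1 or 3 (edgeR adjusted p up to 0.158). With the tumour as a block, 2 rose and 7 fell, beside 3.14% and 6% of all genes. STEAP1, the relative of STEAP2, changed by −0.57 ± 0.15 in that fit (edgeR adjusted p = 0.00690), and VAPA, which tethers the endoplasmic reticulum to other membranes, by −0.49 ± 0.13 (edgeR adjusted p = 0.00863). CENPN, a centromere protein, had −0.64 ± 0.21 without the block (edgeR adjusted p = 0.113) and −0.62 ± 0.17 with it (edgeR adjusted p = 0.0113).

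A set of 3 genes known to be repressed by androgen were read as well. UGT2B15 and UGT2B17, which inactivate androgens by glucuronidation and are close paralogs, so that their reads may be shared, had footprint changes of −0.31 ± 0.14 and −0.32 ± 0.16 (edgeR adjusted p = 0.163 and 0.234) and RNA changes of −0.06 ± 0.16 and 0.02 ± 0.30. OPRK1, the kappa opioid receptor, had at most 1 footprint count and 4 to 20 RNA counts per library and was not tested.

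As a description, the gene whose profile over the 12 libraries was most like that of each of 8 targets, after the mean of each assay was removed and among 4888 or 4889 genes with at least 50 counts on average, was HSPB6 for KLK4, ERGIC1 for KLK2, PRKCD for PMEPA1, TRABD for TMPRSS2, SH2D4A for FKBP5, NSD1 for STEAP2, CTSC for KLK3 and CADPS2 for SLC45A3. Pearson correlations ran from 0.747 (SLC45A3) to 0.938 (KLK4), over libraries that share tumours and depth. KLK2, KLK3, TMPRSS2 and CAMKK2 had fewer footprint counts than that and could not be picked as a match. With so few of the 9 among the genes compared, the lack of a target among these matches says nothing about the targets. Within 1 assay some matches were weaker, at 0.398 over the 6 RNA libraries for SLC45A3 and 0.436 over the 6 footprint libraries for STEAP2.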

How the data were processed

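Footprints and RNA were measured in 3 vehicle and 3 zotatifin tumours (12 libraries). Footprints of 24 to 34 nt came from monosomes, and RNA libraries were stranded total RNA, per the labels' protocols. The authors' deposited count tables hold raw counts per transcript. Their RNA table holds a mean signal in normalised counts, log2 fold changes, a Wald score and p-values, and their footprint table an estimate read as a natural log and an FDR, a p-value adjusted by the authors, per the file headers; over 1566 genes that estimate had weights of 0.665 and −0.666 on the log2 footprint and RNA changes. The submitters' processing notes name hg38, Bowtie2 2.3.5, DESeq2, UMI-tools and cutadapt 2.3. Not given in the sources used here are the strand setting, the counted region and any removal of mouse reads.

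Genes passing filterByExpr (minimum count 10, total 15) were tested with edgeR 4.0.16 in R 4.3.3 (TMM, quasi-likelihood, robust), footprints and RNA apart and TE as the interaction of assay and treatment, with Benjamini-Hochberg adjustment over all genes. A call is an adjusted p under 0.05, and every adjusted p is from edgeR unless another tool is named. Errors of changes are standard errors taken from the estimate and its F statistic. The fits were tested on simulated data, with larger changes than those of the targets and no effect shared by the libraries of a tumour. Their power for changes as small as those of the targets was not tested. After group means were removed, the footprint and RNA libraries that share a treatment and a number had correlations of 0.217 to 0.440 (4889 genes, 6 pairs), against −0.381 to 0.119 for other numbers. Removing the means makes other-number values lower wherever same-number values are positive, so part of that gap is built in. Numbers were taken to mark tumours. Across treatments same-numbered libraries correlated at −0.0947 to 0.181 and others at −0.196 to 0.169. They were not paired, as no label says that numbers pair across treatments. Alternatives were DESeq2 1.42.0, its size factors in edgeR, no filter, replicate blocks and leaving out each library.

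The members and lists were chosen with earlier results of these data known. All 9 members were named, with the 4 genes of the wider androgen list with the smallest adjusted p per comparison, and the 1 gene most like each member; results for some of these genes are not reported here. Levels per coding length were not computed, as no coding lengths were used here.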

Additional observations from a re-analysis of the deposited data

Results flagged for a closer look

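The log2 change of KLK4 in footprints minus that in RNA was 0.46 with the tumour as a block, a difference between the assays under the same treatment that passed the test (edgeR adjusted p = 0.00789; higher in all 3 zotatifin tumours than in all 3 vehicle tumours). It was not called without the block (0.48, edgeR adjusted p = 0.216), nor with the block without vehicle tumour 2 or zotatifin tumour 2 (edgeR adjusted p = 0.0893 and 0.0860). Fibroblast marker footprints were lower in the same zotatifin tumours, at 143 to 269 CPM in sum against 471 to 811 CPM, and their part was not tested.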

How the results depend on the processing

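The count of called targets stayed at 0 in footprints, RNA and TE with DESeq2, with its size factors in edgeR, without the filter on low counts, and without each library or tumour in turn (0 to 0). DESeq2 gave KLK3 no adjusted p in footprints or TE. No label says that replicate numbers pair across treatments. With the replicate number as a block across them, 1 target was called in footprints (KLK4, 0.33, edgeR adjusted p = 0.0494) and 0 in RNA. Over all genes those fits called 796 of 9544 in footprints and 527 of 13118 in RNA. With the tumour as a block, 1 was called in TE, as with DESeq2 size factors or no filter added to the block (1 each), and 0 to 1 without each tumour; these blocked fits were added after seeing the data, apart from the plain block. The median TE level of the targets was −0.69 in both scalings and −0.83 to −0.61 without each vehicle tumour. Without the filter the RNA changes of STEAP2 and CAMKK2 turned to 0.012 and 0.0067.

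Leaving out 1 library turned the sign of small changes that no fit called. Footprint changes then ran from −0.24 to 0.23 for PMEPA1, −0.24 to 0.18 for KLK2, −0.19 to 0.37 for KLK3, −0.089 to 0.011 for STEAP2 and −0.088 to 0.018 for FKBP5. RNA changes ran from −0.052 to 0.28 for TMPRSS2, −0.16 to 0.17 for STEAP2, −0.30 to 0.0042 for KLK4 and −0.095 to 0.11 for CAMKK2. TE changes ran from −0.10 to 0.17 for SLC45A3 (−0.11 to 0.17 with the block, with −0.018 without zotatifin tumour 2), −0.18 to 0.14 for STEAP2 (−0.18 to 0.13, with 0.0045 without vehicle tumour 2) and −0.40 to 0.089 for PMEPA1 (−0.41 to 0.076). For SLC45A3 the footprint change ran from 0.019 to 0.19 and the RNA change from 0.012 to 0.12. The cause was not tested. Footprint levels per coding length were planned and not run.

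Calls in the wider androgen list, 10 in footprints, were 3 with DESeq2, 15 without the filter, 13 with the replicate block and 2 to 9 without each library. In RNA, 2 calls became 5 without the filter, 5 with the replicate block, and 0 to 3 without each library. In TE, 1 call became 9 with the block, 9 and 10 with DESeq2 size factors or no filter added, 0 to 1 without each tumour and, with the block, 4, 10 and 5 without vehicle tumour 1, 2 and 3 and 6, 3 and 6 without zotatifin tumour 1, 2 and 3. Over all genes, footprint calls were 681, and 380 with DESeq2, 905 without the filter and 796 with the replicate block. They were 185, 415 and 438 without vehicle library 1, vehicle library 3 and zotatifin library 1. RNA calls were 225, and 624 without the filter and 527 with the replicate block. They were 11, 396, 25, 56 and 48 without vehicle library 1, 2 and 3 and zotatifin library 1 and 3. TE calls were 193, and 864 with the tumour block and 60 to 146 without each tumour. The 3 tumours per treatment and, for KLK2, KLK3, TMPRSS2, SLC45A3 and CAMKK2, footprint counts under 100 per library limit the precision.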
